A study of Canis lupus familiaris with 36 samples.

Results

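PLPP3, ASIC5, NAPSA, KLHL14, OSBPL6, SLC38A11 and ABCA5 are 7 genes, of 15115 genes on the array, that are seldom listed among the usual surface and transcription factor markers of B cells. They were chosen on these same arrays for their high intensity in canine B cell lymphomas relative to T cell lymphomas, so the size of that contrast is given below as a description without a test. All 7 were among the 7500 genes that passed the filter on dim genes, and 13 probe sets of the array represented them (3 each for PLPP3 and OSBPL6, 2 each for NAPSA and ABCA5, and 1 each for ASIC5, KLHL14 and SLC38A11). Each gene is described by its brightest probe set, on a log2 intensity scale on which a value of 4 was the minimum for a usable signal. Values of different probe sets cannot be set against each other as levels of RNA, so the genes are compared only by how far apart B and T dogs lay. That distance also varied between probe sets of a gene, with mean differences of 4.35, 4.28 and 2.56 for OSBPL6. Orders of the genes by distance therefore hold for the chosen probe sets only.

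The tissue was primary tumour from 35 dogs with lymphoma, dissociated mechanically and filtered, with RNA from the whole suspension on Affymetrix canine arrays. The B cell lymphomas came from 10 dogs with DLBCL (high grade, diagnosed at an age of 4 to 14 in a unit the labels do not give), 5 with MZL (low grade, age 4 to 10) and 2 with BL (high grade, age 2 and 5). The T cell lymphomas came from 4 dogs with LBT (high grade, age 3 to 10), 4 with PTCL (3 of high and 1 of intermediate grade, age 6 to 14) and 9 with TZL (low grade, age 7 to 11). A dog labelled NBNT, for a lymphoma of neither B nor T type (low grade, age 8), entered no comparison. No treatment was recorded in the labels, and 15 dogs were male and 20 female. Golden Retrievers were 24 of the dogs, with 6 in DLBCL, 4 in MZL, 1 in BL, 3 in LBT, 1 in PTCL, 8 in TZL and the NBNT dog. The others were Rottweilers, Labradors, Boxers, Mastiffs, a German Shepherd and a Bichon Frise. Each dog is taken as a separate animal because the labels number the cases separately. DLBCL and MZL are the usual abbreviations of diffuse large B cell and marginal zone lymphoma, and PTCL and TZL those of peripheral T cell and T-zone lymphoma.

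The 7 genes have different known roles. PLPP3 is an ectoenzyme of the plasma membrane that removes the phosphate from lysophosphatidic acid and sphingosine 1-phosphate, lipid signals that steer lymphocyte traffic. OSBPL6 belongs to the oxysterol-binding proteins, which bind and move sterols and phospholipids between membranes, and ABCA5 is a transporter of the ATP-binding cassette family in lysosomal and endosomal membranes that has been linked to cholesterol handling in human and mouse cells. ASIC5 is a sodium channel of the degenerin family that responds to bile acids in rodents, and SLC38A11 is a putative transporter of amino acids named after its family. NAPSA is napsin A, an aspartic protease that matures surfactant protein in lung and is used by pathologists as a marker of lung adenocarcinoma. KLHL14 has the domains of adaptors that bring substrates to the ubiquitin ligase built on cullin 3, and in human lymphoma cells it has been tied to the maturation of B cell receptor glycoproteins. In a tumour suspension an array measures RNA per sample, so fewer cells of a type and less RNA per cell cannot be told apart.

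Some arrays stood apart before any comparison. In 6 arrays the log2 intensity of the actin 3' control was 14.0 to 14.4, while the remaining 30 arrays had 10.8 to 12.5, and the labels give no reason. These were TZL replicates 1, 2 and 7, PTCL replicate 3, and DLBCL replicates 4 and 9. The labels were borne out by defining markers, since all 9 T cell markers on the array were lower in B dogs and all 11 B cell markers tested were higher by limma, while PAX5 lay below the minimum in every dog. DLBCL replicate 3, which was not among those 6, stood apart in the 7 genes themselves and is described on its own below. Because a single dog can decide a count here, results that rest on it are given with and without it.

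PLPP3 had the widest mean distance between the lineages. Its log2 intensity ran from a lowest of 5.24 through a median of 9.38 to a highest of 11.1 in the 17 B dogs, against 2.30, 3.61 and 7.65 in the 17 T dogs. Every B dog reached the minimum and 7 T dogs did, and the groups overlapped through a low B dog, DLBCL replicate 3, and a high T dog, TZL replicate 3. By disease state PLPP3 averaged 8.67 ± 1.35 in DLBCL, 9.77 ± 0.44 in MZL (SD, n = 10 and 5), and was 9.92 and 11.1 in the 2 BL dogs. It averaged 3.31 ± 0.51 in LBT, 4.27 ± 1.42 in PTCL and 4.45 ± 1.68 in TZL (SD, n = 4, 4 and 9).

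OSBPL6 lay between 8.01 and 9.57 in the B dogs apart from DLBCL replicate 3. Its lowest, median and highest log2 intensities were 3.24, 9.06 and 9.57 in B dogs, against 1.86, 4.28 and 6.72 in T dogs. The 5 MZL dogs lay between 9.05 and 9.34, the narrowest spread of any of the 7 genes in a B disease state (SD 0.15), while 9 of the 17 T dogs also reached the minimum. ABCA5 ran through 6.78, 7.97 and 9.71 in B dogs, against 2.34, 4.17 and 6.17 in T dogs. It was the only gene of the 7 whose groups did not overlap, although 10 T dogs reached the minimum, the most for any of the 7.

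ASIC5 was the only gene of the 7 that no T dog brought up to the minimum. Its log2 intensity ran through 2.39, 7.24 and 9.11 in B dogs, against 1.57, 2.25 and 3.71 in T dogs. The minimum was reached by 16 of 17 B dogs, the exception being DLBCL replicate 3, so ASIC5 was at least 7.09-fold higher in B dogs when taken against the dimmest usable signal of the T arrays. SLC38A11 was the most variable in B dogs, with 1.60, 6.71 and 9.38 there, against 1.31, 1.57 and 4.87 in T dogs. It lay below the minimum in 3 B dogs, DLBCL replicate 3 at 1.60, MZL replicate 4 at 1.94 and BL replicate 2 at 2.78, and above it in 1 T dog, TZL replicate 3.

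NAPSA was high in every B dog, at 6.50, 9.27 and 10.1 for the lowest, the median and the highest, against 2.23, 4.12 and 7.48 in T dogs, of which 9 reached the minimum. The T cell lymphomas were spread widely for NAPSA, with an SD of 0.83 across B dogs and 1.79 across T dogs. Of 8 epithelial markers of lung and kidney on the array, SFTPD, NKX2-1, UMOD and AQP2 lay below the minimum in every B and every T dog, SFTPC and KRT8 in every T dog but not in every B dog, and EPCAM and KRT18 passed the filter. Of these last 2, 0 were called higher and 1 was called lower in B dogs by limma. KLHL14 ran through 2.81, 7.36 and 8.81 in B dogs, against 1.65, 2.08 and 5.77 in T dogs. The lowest B dog was BL replicate 2 at 2.81, while BL replicate 1 had 7.52, so the 2 BL dogs lay on opposite sides of the minimum.

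**Figure D1:**
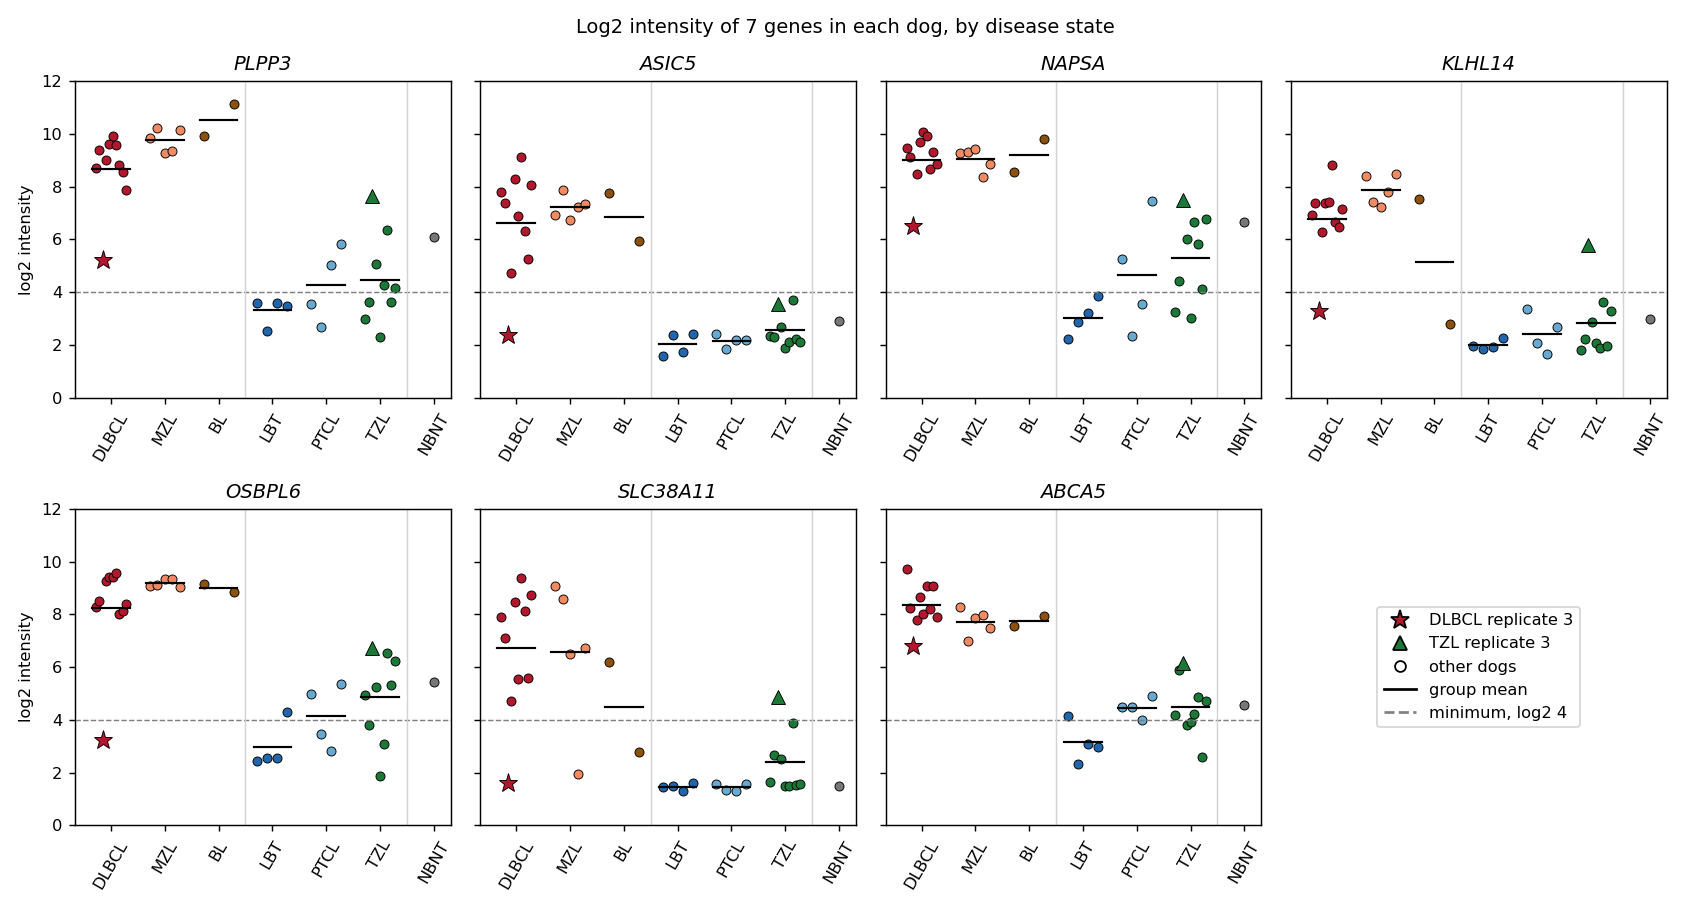
Log2 intensity of each of the 7 genes (vertical axis) in every dog, by disease state (horizontal axis), with B disease states on the left, T disease states in the middle and the NBNT dog on the right; bars are group means and the dashed line is the minimum of 4. The star, DLBCL replicate 3, lies below all other DLBCL dogs in each panel, and the triangle, TZL replicate 3, is the highest T dog in 6 of the 7 panels.

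How cleanly each gene divided the lineages was measured as the lowest B dog minus the highest T dog on the log2 scale, which is positive where no dog overlaps. The distance was 0.62 for ABCA5, and it was negative for the other 6 genes, at -0.98 for NAPSA, -1.32 for ASIC5, -2.41 for PLPP3, -2.96 for KLHL14, -3.27 for SLC38A11 and -3.48 for OSBPL6. Thus 1 of the 7 genes had every B dog above every T dog, a property of 17 of the 7500 genes tested (0.227%), and nothing is read from this count since the genes were chosen on the same contrast. ABCA5 had the second highest distance of the 7500 genes, behind KYNU at 0.65, an enzyme of tryptophan breakdown. This gene and those below it in that order were looked up after their values were seen.

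Counting dogs on the wrong side of the best dividing value gave another order. PLPP3, ASIC5, NAPSA and OSBPL6 each had 1 dog on the wrong side, and it was DLBCL replicate 3 in each case. KLHL14 had 2, DLBCL replicate 3 and BL replicate 2, and SLC38A11 had 4, which were DLBCL replicate 3, MZL replicate 4 and TZL replicates 3 and 7. With all but at most 1 B dog above every T dog as the criterion, 65 of 7500 genes qualified (0.867%), among them 5 of the 7 (PLPP3, ASIC5, NAPSA, OSBPL6 and ABCA5). Measured from the next lowest B dog, the distance was 1.29 for OSBPL6, the highest of all 7500 genes, 1.01 for ASIC5, 0.90 for NAPSA, 0.82 for ABCA5 and 0.24 for PLPP3, but still -2.50 for KLHL14 and -2.93 for SLC38A11. Nothing is read from this count or this order either, since the 7 genes were chosen on the same contrast.

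The familiar B cell markers, measured the same way, left narrower distances than ABCA5 or overlapped. MS4A1, which encodes CD20, had a distance of 0.006, since B dogs began at 10.81 and the highest T dog, PTCL replicate 4, had 10.80. BLNK, which links the B cell receptor to its signalling enzymes, had a distance of 0.24 and BANK1, a scaffold protein of B cells, one of 0.05. EBF1, a transcription factor of the B lineage, came to -0.14, CD22, an inhibitory receptor, to -1.62 with 2 dogs on the wrong side, CD79B to -1.24 with 5, and CD79A, the signalling chain of the B cell receptor, to -2.49 with 11. The T dogs ran from 2.91 to 10.80 for MS4A1, and from 1.57 to 3.71 for ASIC5, where all of them lay below the minimum. These are spans within a probe set, and the levels are not compared between probe sets. This comparison is a description only, since the 7 genes were chosen on it and the markers were not.

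**Figure D2:**
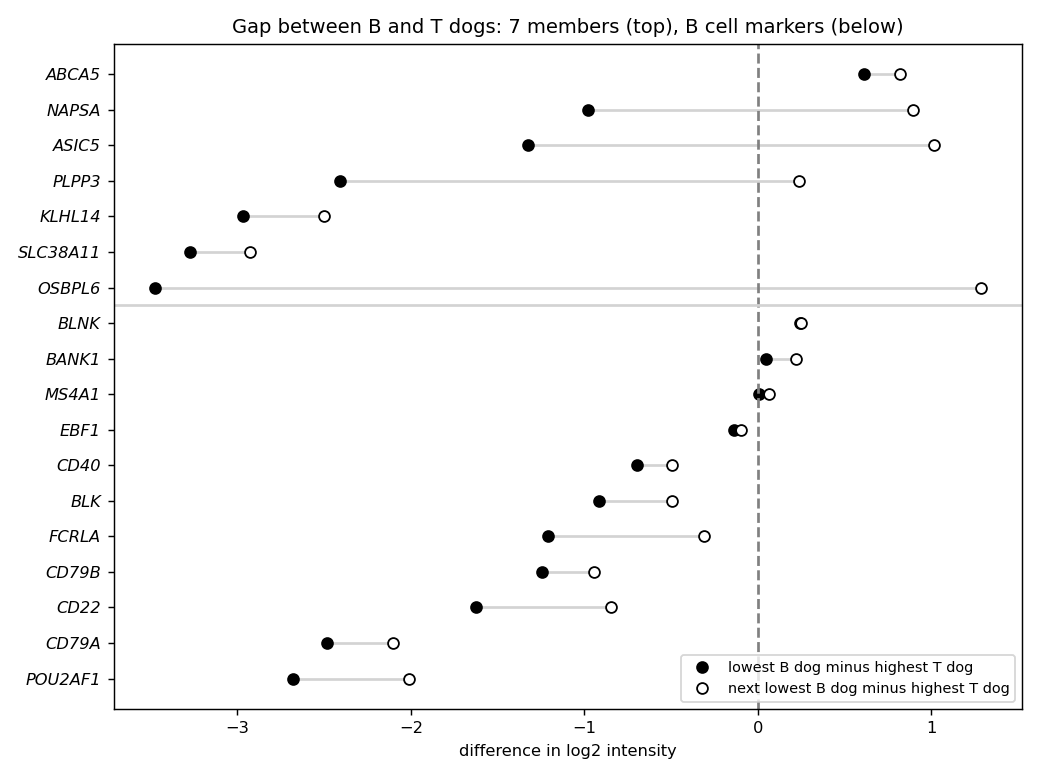
The lowest B dog (filled) and the next lowest B dog (open) minus the highest T dog, as a difference in log2 intensity (horizontal axis), for the 7 genes above the grey line and 11 B cell markers below it; points right of the dashed line at 0 mean no overlap. OSBPL6 has -3.48 from its lowest B dog, DLBCL replicate 3, and 1.29 from the next, whereas the 3 markers BLNK, BANK1 and MS4A1 lie close to 0 by either measure.

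The other probe sets of the same genes gave no separation without overlap. Of the 6 further probe sets, 0 had every B dog above every T dog, and the second probe set of ABCA5 had a distance of -0.51 with TZL replicate 2 above the lowest B dogs. Measured from the next lowest B dog, the second probe sets of NAPSA and ABCA5 still overlapped, at -0.16 and -0.07. The further probe sets of PLPP3 and OSBPL6 did not overlap by that measure. DLBCL replicate 3 was the lowest B dog in 12 of the 13 probe sets, and TZL replicate 3 was the highest T dog in 7 of them, 6 of these being the chosen probe sets and 1 a further one. The chosen probe sets of PLPP3, SLC38A11 and ABCA5 are of a type that the manufacturer marks as able to match several transcripts, so signal from a related transcript is not separated from theirs.

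DLBCL replicate 3 combined high B cell markers with low values of the 7 genes. This dog was the only Boxer among the B dogs, and the part of breed in its values was not tested. It was the lowest of the 10 DLBCL dogs for all 7, against 1472 of the 7500 genes tested (19.6%) for which it was the lowest, and no other DLBCL dog was lowest for any of the 7. The share of all genes for which another DLBCL dog was lowest ran between 3.68% and 14.6%. Its OSBPL6 value was 3.24, against 8.01 to 9.57 in the other 9 DLBCL dogs, and its SLC38A11 value was 1.60, against 4.72 to 9.38. Its PLPP3 value was 5.24, against 7.89 to 9.92 in the others, its KLHL14 value 3.27, against 6.30 to 8.81, and its ASIC5 value 2.39, against 4.73 to 9.11. NAPSA at 6.50, against 8.46 to 10.1, and ABCA5 at 6.78, against 7.80 to 9.71, stayed above the minimum, and these and PLPP3 were the 3 of the 7 genes that did.

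The B cell markers of the same tumour were not low as a group. The mean over the 11 markers was 9.40 on the log2 scale in DLBCL replicate 3, the highest of the DLBCL dogs, of which the lowest had 8.63. CD79A, at 9.09 against 6.60 to 8.82 in the others, EBF1, BLK, BLNK and POU2AF1 lay above all other DLBCL dogs, MS4A1, at 10.87 against 10.93 to 11.99, and BANK1 lay below all of them, and the other 4 lay within their range. Some markers of other cell types also differed in this dog. Its means over the macrophage and the stromal markers, 5.55 and 4.20, did not, since the other DLBCL dogs ran from 3.95 to 6.98 and from 2.52 to 11.1. The mean over 3 plasma cell markers was 10.5, against at most 7.82 in any other DLBCL dog. SDC1 lay below the minimum in every B and T dog. The mean over 2 endothelial markers, PECAM1 and KDR, was 6.44, against at most 6.08. KDR, VWF, CDH5, TEK, EMCN and CLDN5 lay below the minimum in every B dog, so of the endothelial markers only PECAM1 gave a usable signal. Of the 9 T cell markers 2 lay above, 1 below and 6 within the other dogs. The part of these other cell types in the low values was not tested. The dog is described here as 1 case and was compared with the others by no test of group means.

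**Figure D3:**
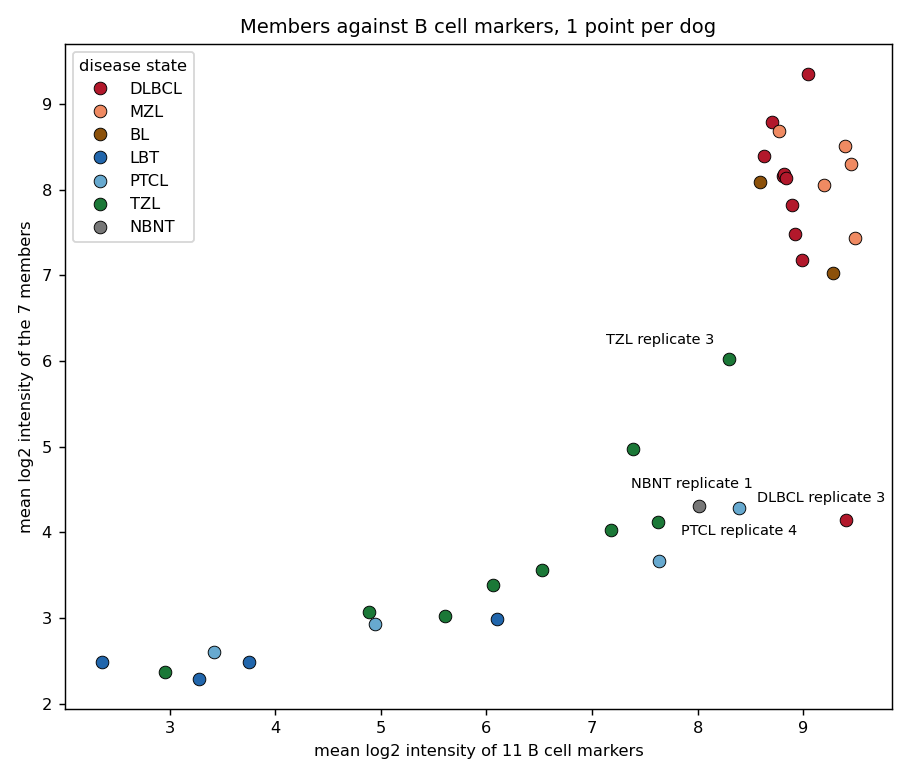
Mean log2 intensity of the 7 genes (vertical axis) against the mean over 11 B cell markers (horizontal axis), 1 point per dog, coloured by disease state. DLBCL replicate 3 lies at 4.14 for the 7 genes and 9.40 for the markers, below every other B dog, which start at 7.03, and TZL replicate 3 is the highest T dog at 6.03.

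Within the B cell lymphomas the choice of the genes used no contrast, and the disease states could be tested. DLBCL and MZL differ in grade, and none of the 7 genes was called between them by limma, where 0 of 7500 genes (0.00%) were called and 977 had an unadjusted p under 0.05, none of them a member of the 7. PLPP3 had a difference of -1.10 (SE 0.68, 95% interval -2.49 to 0.29, limma adjusted p = 0.526), and KLHL14 one of -1.09 (SE 0.67, interval -2.46 to 0.27, limma adjusted p = 0.516). OSBPL6 had -0.95 (interval -2.51 to 0.60), ASIC5 -0.60 (interval -1.93 to 0.73), NAPSA -0.05 (interval -1.45 to 1.36), SLC38A11 0.15 (interval -1.87 to 2.17) and ABCA5 0.63 (interval -0.26 to 1.52). These intervals leave room for differences of more than 2 on the log2 scale for PLPP3, KLHL14, OSBPL6 and SLC38A11, so a missing call does not show that the disease states were alike. Without DLBCL replicate 3 the differences were -0.72 for PLPP3, -0.71 for KLHL14, -0.40 for OSBPL6 and -0.13 for ASIC5. NAPSA then had 0.23 and ABCA5 0.81, SLC38A11 stayed positive, and none was called.

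Between BL and DLBCL 0 of the 7 genes were called, and 2 of 7500 genes were (0.0267%). With only 2 BL dogs the intervals were wide, from -0.12 to 3.81 around 1.85 for PLPP3 and from -5.08 to 0.63 around -2.22 for SLC38A11. KLHL14 had a difference of -1.62 (SE 0.94), which rests on BL replicate 2, since the value without BL replicate 1 was -3.97 and without BL replicate 2 it was 0.74, with the lone BL dog assumed to vary like the other groups. None of these 3 had an unadjusted p under 0.05.

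**Figure D4:**
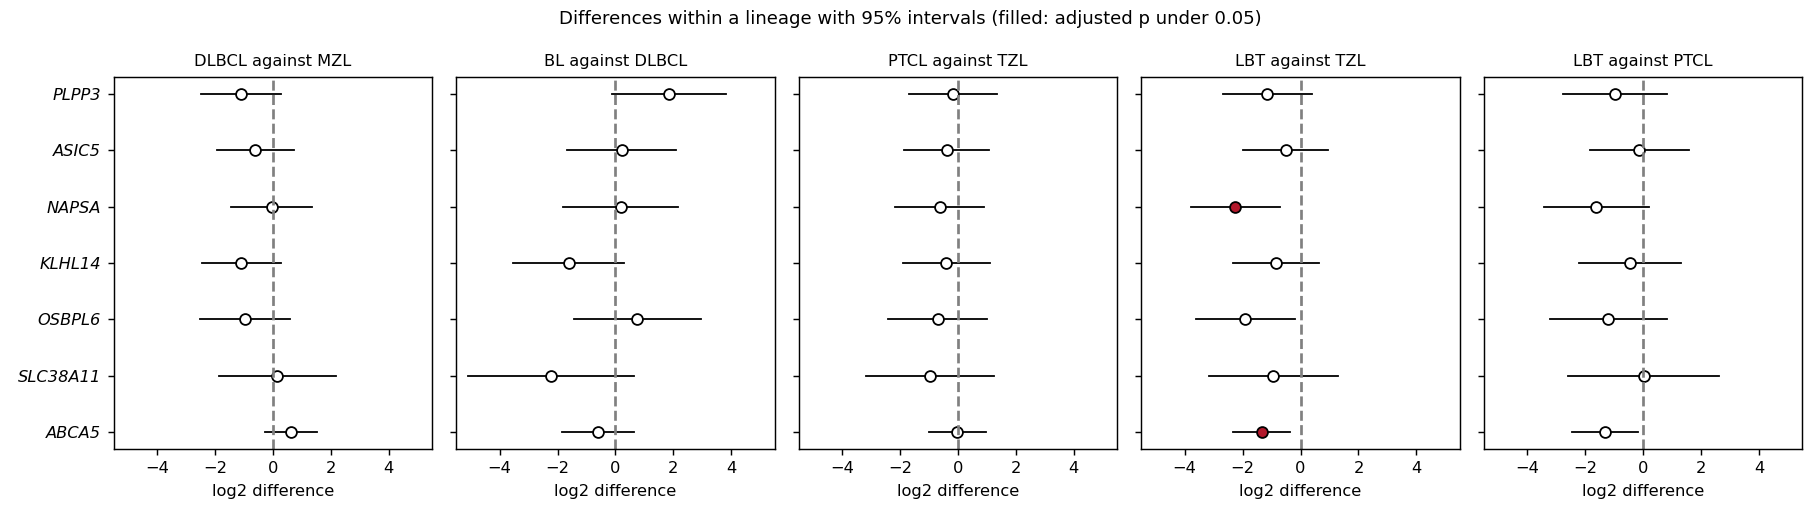
Log2 difference (horizontal axis) of each of the 7 genes in 5 contrasts within a lineage, first-named disease state minus the second, with 95% intervals from the limma fit; filled points had an adjusted p under 0.05. Only NAPSA and ABCA5 between LBT and TZL are filled, at -2.25 and -1.34.

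Within the T cell lymphomas 2 of the 7 genes, NAPSA and ABCA5, were called lower in LBT than in TZL. Of 7500 genes 2259 (30.1%) were called in either direction, 1332 higher and 927 lower in LBT. The share called in either direction is close to that of all genes, and nothing is read from the count. The median difference of the 7 genes was -1.14, against 0.05 over all genes. NAPSA lay below the minimum in all 4 LBT dogs, at 2.23, 2.87, 3.21 and 3.84, against a lowest of 3.03, a median of 5.84 and a highest of 7.48 in the 9 TZL dogs. NAPSA fell by 2.25 in LBT relative to TZL (SE 0.76, 95% interval -3.79 to -0.70, limma adjusted p = 0.0239), and it was at least 2.43-fold lower when taken against the dimmest usable signal. ABCA5 was 2.34, 2.98, 3.10 and 4.16 in LBT, against 2.60, 4.23 and 6.17 for the lowest, median and highest TZL dog, and it fell by 1.34 (SE 0.48, 95% interval -2.32 to -0.37, limma adjusted p = 0.0319).

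The LBT and TZL groups overlapped for both genes, and neither call was firm. OSBPL6 had a difference of -1.91 (SE 0.84, limma adjusted p = 0.0834), and the other 4 genes had differences between -1.14 and -0.52, also below 0, with limma adjusted p of at least 0.260. No LBT dog was in the set of 6 arrays, and with the set as a block NAPSA stood at -2.58 (limma adjusted p = 0.0101) and ABCA5 at -1.32 (limma adjusted p = 0.0436), while without those arrays NAPSA stood at -2.64 (limma adjusted p = 0.0189) and ABCA5 at -1.10 (limma adjusted p = 0.117). When all values under the minimum were raised to it, NAPSA stood at -1.48 (limma adjusted p = 0.0814) and ABCA5 at -0.63 (limma adjusted p = 0.254), and neither was called. Leaving out LBT replicate 1 or 2 ended the call of NAPSA (limma adjusted p = 0.0915 and 0.0559), and leaving out LBT replicate 2, 3 or 4 or TZL replicate 2 or 3 ended that of ABCA5 (0.131, 0.0699, 0.0731, 0.0584 and 0.0583). OSBPL6 was called without DLBCL replicate 3 (0.0202) or TZL replicate 5 (0.0291).

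Markers of B cells moved the same way between these groups. Of the 11 B cell markers tested, 7 were lower in LBT, 0 were higher, and the median difference was -1.98, against 0.05 over all genes. Their mean ran from 2.36 to 6.10 in LBT dogs, against 2.96 to 8.30 in TZL dogs. The 3 plasma cell markers tested were all lower in LBT, with means between 7.10 and 8.05 in LBT dogs, against 8.76 to 10.8 in TZL dogs. Of the 9 T cell markers 1 was lower and 8 were not called. The part of these marker genes in the differences of NAPSA and ABCA5 was not tested in the fit.

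None of the 7 genes was called by limma between PTCL and TZL, where 1025 of 7500 genes (13.7%) were, nor between LBT and PTCL, where 51 genes (0.680%) were. The differences between PTCL and TZL ran from -0.96 for SLC38A11 (95% interval -3.18 to 1.25) to -0.02 for ABCA5 (interval -0.995 to 0.951). Between LBT and PTCL the largest were -1.61 for NAPSA (interval -3.43 to 0.20, limma adjusted p = 0.473) and -1.32 for ABCA5 (interval -2.47 to -0.18, limma adjusted p = 0.306), and only ABCA5 had an unadjusted p under 0.05.

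Across the 17 T dogs the 7 genes followed the B cell markers of the same suspension. NAPSA followed the mean of the 11 markers with a Pearson r of 0.90 and a Spearman rho of 0.91, with a permutation p of 1e-05 for each, the smallest that 100000 resamples can give, and an adjusted p of 0.00035 over 35 relations. OSBPL6 had an r of 0.84 and a rho of 0.85 (permutation p = 6e-05 and 5e-05, adjusted p = 0.00105 and 0.000875). PLPP3 had an r of 0.71 and a rho of 0.68, and KLHL14 an r of 0.68 and a rho of 0.72 (adjusted permutation p = 0.00868 for each r). ASIC5 had an r of 0.65, ABCA5 of 0.57 and SLC38A11 of 0.54. All 7 passed by Pearson and 6 by Spearman, where ASIC5 had an adjusted permutation p of 0.0503. Other genes on the array were not set against the marker mean in any set of dogs. How unusual such counts are among all genes was therefore not tested, and nothing is read from them.

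Leaving out the 2 dogs with the most distant marker means, LBT replicate 1 and TZL replicate 5, gave an r of 0.88 for NAPSA, 0.78 for OSBPL6 and 0.70 for PLPP3. The disease states differ in these markers, so the relation was repeated within TZL alone, where 9 dogs gave an r of 0.83 for NAPSA (exact permutation p = 0.00394, adjusted p = 0.0332), 0.81 for PLPP3 and 0.79 for OSBPL6 (exact permutation, adjusted p = 0.0368 for each). Within TZL these 3 of the 7 passed by Pearson and none by Spearman, and without TZL replicates 3 and 5 the r of OSBPL6 was 0.43. Without the set of 6 arrays 5 of the 7 passed over 13 T dogs (NAPSA r 0.93, adjusted permutation p = 0.0014), and within that set the 4 T dogs were too few for a value. ASIC5 lay below the minimum in every T dog, and KLHL14 and SLC38A11 in all but 1, so their relations rest on signals under the usable range.

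**Figure D5:**
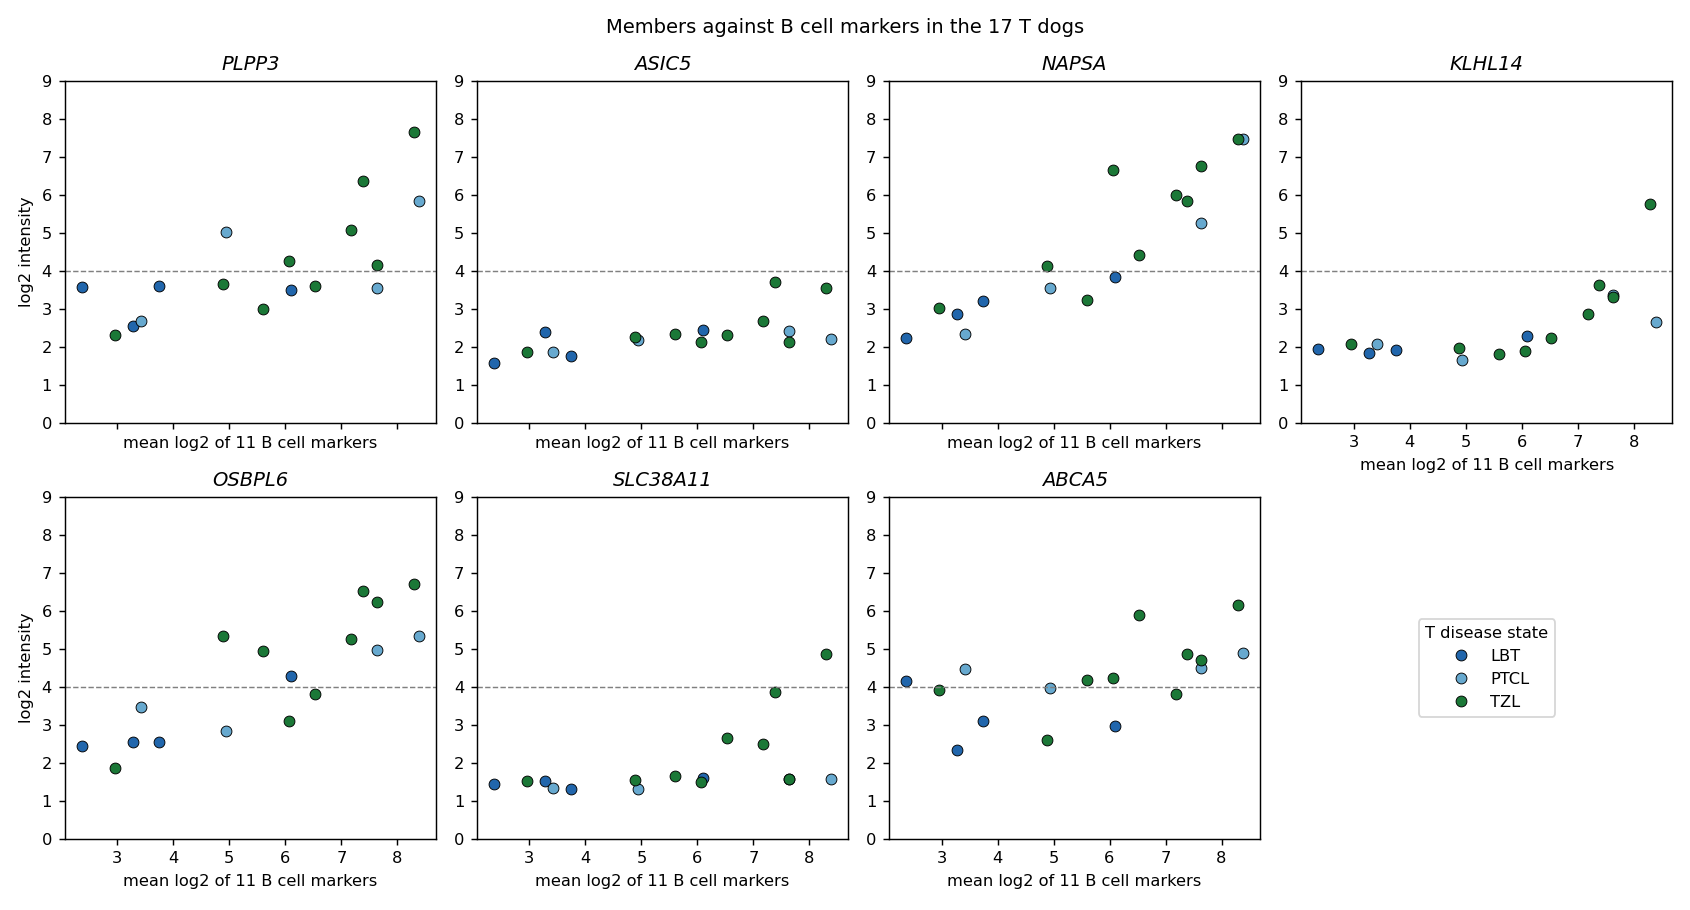
Log2 intensity of each of the 7 genes (vertical axis) against the mean log2 intensity of 11 B cell markers (horizontal axis) in the 17 T dogs, coloured by disease state, with the minimum of 4 as a dashed line. NAPSA climbs along the markers to values near 7.5 in TZL replicate 3 and PTCL replicate 4, whereas ASIC5 stays below 4 throughout.

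The T dogs with the most B cell marker signal did not carry equal amounts of the 7 genes. PTCL replicate 4 had a marker mean of 8.39 and TZL replicate 3 one of 8.30, and their means over the 7 genes were 4.28 and 6.03. TZL replicate 3 reached the minimum in 6 of the 7 genes, all except ASIC5, and PTCL replicate 4 in 4. Both also had the highest means over the macrophage markers among the T dogs, 7.74 in PTCL replicate 4 and 7.43 in TZL replicate 3, and the part of those cells was not tested. The number of the 7 genes at or above the minimum was 3 to 7 with a median of 7 among B dogs, against 0 to 6 with a median of 2 among T dogs.

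The NBNT dog lay below every B dog in its mean over the 11 B cell markers, at 8.01 against 8.59 to 9.49, and between DLBCL replicate 3 and the other B dogs in its mean over the 7 genes, at 4.31 against 4.14 to 9.35 over all B dogs. Of the 7 genes 4 reached the minimum. ABCA5 at 4.57 and SLC38A11 at 1.48 lay below every B dog, while PLPP3 at 6.09, NAPSA at 6.67, OSBPL6 at 5.43, KLHL14 at 2.97 and ASIC5 at 2.93 lay within the B range only because DLBCL replicate 3 or BL replicate 2 extended it. All 7 values lay within the range of the T dogs. So did its mean over the B cell markers, where T dogs had 2.36 to 8.39. Its mean over the 9 T cell markers was 10.5, against 8.71 to 11.4 in T dogs. Of the 11 B cell markers 4 lay below every B dog (MS4A1 at 10.13, BLK, BLNK and BANK1) and 7 lay within them, CD79A at 8.44 among these, and all 9 T cell markers lay above every B dog. It is 1 dog and no comparison was made.

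Among the 17 B dogs the 7 genes moved together mainly through DLBCL replicate 3. The 21 pairs of genes had Pearson r between 0.15 and 0.86 with a median of 0.57, and 9 pairs passed with permutation p adjusted over 35 relations, but only 1 did by Spearman. The strongest was PLPP3 with OSBPL6, at an r of 0.86 (permutation p = 0.00121, adjusted p = 0.00868) and a rho of 0.50 (adjusted permutation p = 0.116). Without DLBCL replicate 3 the r of the 21 pairs lay between -0.41 and 0.57 with a median of 0.22, and none passed by Pearson, so those Pearson calls rest on that dog. The pair that passed by both measures was ASIC5 with SLC38A11, at an r of 0.70 and a rho of 0.73 (adjusted permutation p = 0.00992 and 0.013), and its r was 0.53 without DLBCL replicates 3 and 4. Without DLBCL replicate 3 alone this pair had an r of 0.57 (adjusted permutation p = 0.101) and a rho of 0.67, which still passed (adjusted permutation p = 0.0282).

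In B dogs the relation of the 7 genes to the B cell markers depended on DLBCL replicate 3. The r with the marker mean was below 0 for all 7 genes, and it passed for ABCA5 alone, at -0.57 with a rho of -0.51 (adjusted permutation p = 0.0401 and 0.108). SLC38A11 had an r of -0.52 (adjusted permutation p = 0.0552) and PLPP3 one of -0.06. Without DLBCL replicate 3 the r turned to 0.39 for PLPP3 and 0.28 for OSBPL6, stayed below 0 for the other 5 (-0.50 for ABCA5), and passed for none of the 7.

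The genes with the most similar pattern over the 17 B dogs were listed by Pearson r among all 7500, as a description, since all points share the same arrays. LYN, a kinase at the B cell receptor, was the nearest gene to both OSBPL6 (r 0.96) and PLPP3 (r 0.87), but the r was 0.61 and 0.57 without DLBCL replicate 3. Next to OSBPL6 came YTHDF3, a reader of methylated RNA, and CHD7, a chromatin remodeller, with r of 0.89 and 0.88, which were 0.34 and 0.32 without that dog. NAPSA was nearest to ROMO1, a small protein of the mitochondrial membrane (r 0.95, and 0.88 without the dog), and ABCA5 to AKAP1, which anchors protein kinase A at mitochondria (0.86 and 0.82). ASIC5 was nearest to RMDN1 (0.86 and 0.70), KLHL14 to LACTB, a mitochondrial protein (0.80 and 0.76), and SLC38A11 to WDR43, a factor of ribosome assembly (0.82 and 0.76). The other places were taken by LOC484343 for PLPP3, LOC477353 and SDHAF3 for ASIC5, MECR and TM2D3 for NAPSA, RASGRP1 and TEX10 for KLHL14, PPA1 and NUP35 for SLC38A11, and IL6R and PWP2 for ABCA5.

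No tested relative of the 7 genes had a contrast between B and T as wide as those of the 7. The lists of the same families and pathways held 124 symbols, some of them older names of PLPP genes that were also listed by their current names. Of these symbols 107 were on the array and 36 passed the filter. Between B and T 16 of the 36 were called by limma (44.4%), against 3486 of 7500 genes (46.5%). Of the 16 called relatives 7 were higher in B, where 24.2% of all genes were, and 9 were lower, where 22.3% were. The median difference of the relatives was -0.05 and that of all genes 0.03. The widest relative was KLHL2, named here after its values were seen, at a difference of 1.70, whereas the 7 genes had differences between 3.93 for ABCA5 and 5.07 for PLPP3. These rest in part on T values under the usable range, and with such values raised to the minimum the 7 differences ran from 2.69 for SLC38A11 to 4.60 for PLPP3. The 7 genes were chosen on this contrast and the relatives were not, so nothing is read from the wider differences of the 7.

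The named relatives were the clearest called in each list. In the phosphatase family PLPP1, which acts on the same lipids as PLPP3, fell by 0.68 in B dogs (SE 0.26, limma adjusted p = 0.0295), the 1 called of 5 tested. Of 5 tested genes that make, break down or sense lysophosphatidic acid and sphingosine 1-phosphate, 2 rose and 1 fell. SPHK2, a sphingosine kinase, rose by 0.89 (SE 0.17, limma adjusted p = 5.26e-05), while SGPL1, the lyase that breaks sphingosine 1-phosphate down, fell by 1.10 (SE 0.36, limma adjusted p = 0.0115) and lay below the minimum in every B dog.

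Kelch-like genes with cullin 3 counted 3 higher and 5 lower of 14 tested. Among the lower ones were KLHL36 at -1.54 (SE 0.19, limma adjusted p = 3.68e-08) and KLHL28 at -0.98 (SE 0.14, limma adjusted p = 6.83e-07). Of 4 oxysterol-binding relatives OSBPL8 rose by 0.37 (SE 0.12, limma adjusted p = 0.011) and 3 were not called. Of 5 amino acid transporters of the SLC38 family 1 was higher and 2 lower, SLC38A10 by -0.64 (limma adjusted p = 0.00607) and SLC38A1, a glutamine carrier, by -0.67 (limma adjusted p = 0.0065). Neither of the 2 aspartic proteases tested was called, nor the 1 relative of ABCA5, and none of the 8 relatives of ASIC5 on the array passed the filter.

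The genes next to each of the 7 on the chromosome, taken by name from RefSeq's annotation of a dog assembly that need not be the one behind the array, passed the filter in 5 cases. GUCY1B1, which encodes a subunit of the nitric oxide receptor and lies next to ASIC5, had a mean of 7.49 ± 2.78 in B dogs against 3.66 ± 1.87 in T dogs (SD, n = 17 each), a rise of 3.83 (SE 0.78, limma adjusted p = 0.000152). Its r with ASIC5 over the B dogs was 0.24, given as a description. MAP2K6 next to ABCA5 rose by 1.19 (limma adjusted p = 0.0164) and USP24 next to PLPP3 by 0.29 (limma adjusted p = 0.0199). NR1H2 next to NAPSA had a difference of -0.56 (limma adjusted p = 0.16) and PRKRA next to OSBPL6 one of 0.60 (limma adjusted p = 0.103). PRKAA2, TDO2, CCDC178, GAREM1, COBLL1, SCN3A and ABCA6 did not pass the filter, and LOC119877908 was not analysed here.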

How the data were processed

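Per the labels, biotin-labelled cRNA from mechanically dissociated tumours was hybridised to Affymetrix canine arrays. The deposited intensity values, on a linear scale, had been summarised by the authors with GCRMA, per the submitters' processing notes; a version was not given in the sources used here. Of 43035 probe sets, 29254 were paired with exactly 1 gene by the platform's annotation, for 15115 genes. From the deposited intensity, values below 1 were set to 1 and log2 was taken. Each gene took its brightest probe set by mean over the 36 arrays. The 2 arrays of a DLBCL dog (numbers 6 and 7 of that group) were averaged and are called replicate 6. Replicate numbers were given in accession order.

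Genes at log2 4 (intensity 16) or more in at least 4 of 34 dogs were tested, which left 7500. Contrasts used limma 3.58.1 in R 4.3.3 (lmFit with a mean per disease state, or per lineage for B against T, then eBayes), Benjamini-Hochberg adjustment over the 7500 genes and an adjusted p under 0.05. Correlations used two-sided permutation tests with 100000 resamples, and exact ones under 10 dogs (scipy 1.17.1), adjusted over 35 relations. Log2 differences understate changes of dim genes. On each array 32.2% to 35.5% of probe sets reached the minimum. The number of dogs limits the precision.

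The genes and all lists were chosen with earlier results of these data known. Named besides the 7 genes were, by rule, up to 2 called relatives per list with the smallest p, the 3 genes nearest to each by r over B dogs, reference B cell markers and the adjoining genes; other named genes are said to be chosen afterwards or serve as listed markers. Alternatives were other filters, scalings, variance models, array weights, probe set rules, covariates, both arrays of the repeated dog, the 6 arrays as a block or left out, the compared states only and each dog left out. The fits were tested on simulated data. Sequences were not used here, and genome coordinates served only to order the genes along a chromosome when the adjoining genes were taken.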

Additional observations from a re-analysis of the deposited data

Results flagged for a closer look

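In each disease state with 4 or more dogs, the highest and the lowest value of each of the 7 genes was set against its nearest neighbour by Dixon's ratio, over 35 groups of values. Chance alone marks about 1 in 20 such groups, and 7 of the 35 were marked. DLBCL replicate 3 gave 4 of them as the lowest DLBCL dog far from the next, with PLPP3 at 5.24 (next 7.89), NAPSA at 6.50 (next 8.46), KLHL14 at 3.27 (next 6.30) and OSBPL6 at 3.24 (next 8.01). PLPP3 was also far from the others in LBT replicate 2, at 2.55 against a next lowest of 3.49, although all 4 LBT dogs lay below the minimum. KLHL14 was the highest of the TZL dogs in TZL replicate 3, at 5.77 against a next highest of 3.63. OSBPL6 was the highest of the LBT dogs in LBT replicate 4, at 4.28 against 2.56.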

How the results depend on the processing

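No paired analysis was possible because replicate numbers were given in accession order and link no dogs. In 4 of the 5 contrasts within a lineage the number of the 7 genes called was 0 under every alternative run and with each dog left out. Between LBT and TZL it was 2, and 1 with no filter, with array weights, with probe sets averaged per gene, with sex, breed and age as covariates, without the set of 6 arrays and with only the compared disease states, and 0 with all values under the minimum raised to it. With each dog left out it ran from 0, without LBT replicate 2, to 3; it was 1 without LBT replicate 1, 3 or 4 or TZL replicate 2 or 3. No called difference changed sign. The count of the 7 genes without overlap was 1, 0 when judged by every other probe set of these genes, and 1 to 5 with each dog left out, 5 without DLBCL replicate 3. The number of correlations that passed was 17 of 35, 12 to 25 under the other choices of dogs, and 5 without DLBCL replicate 3, a setting chosen after seeing the data, as were those that left out LBT or kept TZL only. Called relatives numbered 16, between 12 and 18 under the alternatives. Scaling moved the split of all genes called between LBT and TZL to 1421 higher and 845 lower with arrays centred, and 1182 and 1081 with quantile normalization, against 1332 and 927. With values under the minimum raised to it, B against T differences were 2.69 for SLC38A11, 2.92 for KLHL14 and 2.92 for ASIC5, and signal under the minimum limits what these 3 genes show in T dogs.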

Other observations

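The 17 genes whose B dogs all lay above all T dogs were looked up after their values were seen. Besides ABCA5, BLNK, BANK1 and MS4A1 they were KYNU, CACNB2, NOP56, DKC1, DNASE2, C10H12orf66, KCNJ12, CCDC34, BOC, SMIM8, RIOK1, DDX20 and GTF3A. KYNU had the widest distance at 0.65 and CACNB2, a subunit of voltage-gated calcium channels, came after ABCA5 at 0.37. NOP56 and DKC1, both needed for ribosome assembly, had distances of 0.31 and 0.26. Nothing was tested on these genes here.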
